A study of Mus musculus with 9 samples.

Results

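Tmem54, Prss50, Plac8, Cnih2 and Mir670hg are 5 genes whose reads were much more abundant in epiblast-like cells (EpiLC) than in at least one kind of mouse embryonic stem cell (mESC) of the same line. They were chosen by their place among the largest rises of EpiLC over either mESC state, so the rises themselves are given below as a description, without a test. They are 5 of the 38293 genes in the table of read counts. The levels of all 5 were set side by side in 9 libraries, 3 from each of 3 culture states. Across the 9 libraries the genes fell into 3 patterns. Tmem54 and Prss50 were near 0 in naive cells, intermediate in serum and high in EpiLC. Plac8 had no count in the naive libraries and was present in serum and in EpiLC at levels within a factor of 1.75 of each other. Cnih2 and Mir670hg were low in both mESC states and high in EpiLC.

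RNA-seq of poly-A RNA was carried out on E14 cells, an mESC line of strain 129/Ola, so the values describe 1 cell line. mESC-2i, the naive state, were kept in serum-free N2B27 medium with 10 ng/mL leukaemia inhibitory factor (LIF), 1 µM of the MEK inhibitor PD0325901 and 3 µM of the GSK3 inhibitor CHIR99021. mESC-ser, labelled primed, were kept in 15% serum with 10 ng/mL LIF and neither inhibitor. EpiLC were made from naive mESC on fibronectin in N2B27 medium with 20 ng/mL activin A, 12 ng/mL bFGF and 1% knockout serum replacement, without LIF. The medium was changed daily, and how long the EpiLC were cultured is not given in the sources used here. The 3 libraries of a group are labelled as biological replicates, but nothing says what separated them, so p-values measure the spread between these libraries, which may be partly technical. Totals ranged from 7187576 to 16829549 counts per library. Levels are given as CPM, that is counts set against library size, with scaling by the trimmed mean of M-values (TMM) over the 9 libraries, as mean ± SD with n = 3.

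Embryonic stem cells in 2i with LIF resemble the epiblast before implantation. Activin A and bFGF move them to a short-lived formative state that resembles the epiblast just after implantation, in which naive transcription factors are shut off and genes such as Fgf5, Otx2 and the de novo DNA methyltransferases are switched on. Serum with LIF holds a mixed population, in which cells drift between the naive state and states closer to differentiation. The 5 genes are not core members of this programme. Tmem54 encodes a small protein that spans the membrane several times. Prss50 encodes a trypsin-like protease best known from the testis. Plac8, also called onzin, encodes a small cysteine-rich protein known from placenta and blood cells. Cnih2 encodes a cornichon protein, an escort that carries AMPA-type glutamate receptors out of the endoplasmic reticulum and stays with them at the surface of neurons. Mir670hg is a long non-coding RNA from which the microRNA miR-670 is cut.

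The labels of the libraries were checked against marker genes. All 7 formative markers (Fgf5, Otx2, Pou3f1, Dnmt3b, Dnmt3a, Lef1 and Sall2) were called higher in EpiLC against each mESC group. All 7 naive markers (Klf4, Esrrb, Zfp42, Tfcp2l1, Tbx3, Prdm14 and Nr0b1) were called lower. The median log2 fold changes against mESC-2i and mESC-ser were 4.18 and 2.06 for the formative list and -7.33 and -5.72 for the naive list, beside -0.11 and -0.07 over all genes tested. The value of -5.72 is that of Prdm14, which had 1 or 2 counts in each EpiLC library, and so rests on few reads. Calls here and below need a Benjamini-Hochberg adjusted p under 0.05 over all genes in edgeR's quasi-likelihood test and an absolute log2 fold change over 0.5. By that rule EpiLC differed in 69.8% of the genes tested from mESC-2i and in 73.3% from mESC-ser, so most genes differed between the states.

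Tmem54 (ENSMUSG00000028786; GRCm38 chr4:129105548-129111626, plus strand, protein-coding) had 0, 0 and 1 counts in the mESC-2i libraries, or 0, 0 and 0.0785 CPM. In mESC-ser it stood at 3.10, 3.50 and 2.65 CPM, and in EpiLC at 69.9, 74.5 and 72.2 CPM. The 3 groups did not overlap, and EpiLC was high in every library. EpiLC (72.2 ± 2.27 CPM) lay 23.4-fold above mESC-ser (3.08 ± 0.424 CPM). The single count in mESC-2i leaves the fold against the naive state poorly bounded, with a pooled ratio of 2362 and a 95% exact counting interval of 423 to 93365. Counting intervals and floors cover counting error only, since the reads carried no molecular identifiers. Among 15378 genes tested, Tmem54 had the highest fitted rise of EpiLC over mESC-2i, a rank that depends on how a count near 0 is treated.

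Prss50 (ENSMUSG00000048752; chr9:110857967-110864629, plus strand, protein-coding) followed the same course at a somewhat lower level. It had 0, 1 and 2 counts in mESC-2i, which are 0, 0.0834 and 0.157 CPM. It reached 4.06, 3.00 and 4.78 CPM in mESC-ser and 47.8, 48.2 and 49.8 CPM in EpiLC. Again the 3 groups were separate and the EpiLC libraries close together. EpiLC (48.6 ± 1.08 CPM) was 12.3-fold above mESC-ser (3.95 ± 0.896 CPM), and the pooled ratio to mESC-2i was 529, with a counting interval of 181 to 2569. Relative to the EpiLC mean, mESC-ser held 6.16% to 9.83% of the Prss50 level and 3.67% to 4.84% of the Tmem54 level.

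Plac8 (ENSMUSG00000029322; chr5:100553725-100572245, minus strand, protein-coding) had no count in any mESC-2i library. It stood at 9.43, 7.74 and 5.75 CPM in mESC-ser and at 13.9, 13.9 and 12.3 CPM in EpiLC. All EpiLC libraries were above all mESC-ser libraries, but the gap between the groups was small beside that of the other 4 genes. Against a floor of 3 counts in the shallowest naive library, the level of Plac8 was higher by at least 20.2-fold in mESC-ser and by at least 35.2-fold in EpiLC. EpiLC (13.3 ± 0.900 CPM) exceeded mESC-ser (7.64 ± 1.84 CPM) by 1.75-fold, a log2 fold change of 0.89 (SE 0.17), which ranked 4222 among 15345 genes tested. Plac8 thus counts among the large rises only against the naive state. The mESC-ser libraries held between 43.1% and 70.7% of the EpiLC mean.

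Cnih2 (ENSMUSG00000024873; chr19:5092868-5098521, minus strand, protein-coding) was detected in all 9 libraries. It stood at 2.40, 2.42 and 3.45 CPM in mESC-2i, at 3.44, 3.25 and 3.51 CPM in mESC-ser, and at 92.6, 112 and 105 CPM in EpiLC. The mESC groups overlapped, and every EpiLC library was far above both. EpiLC (103 ± 9.63 CPM) was 37.3-fold above mESC-2i (2.76 ± 0.604 CPM; log2 fold change 5.19, SE 0.16) and 30.3-fold above mESC-ser (3.40 ± 0.137 CPM; 4.98, SE 0.12).

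Mir670hg (ENSMUSG00000075020; chr2:94160636-94264918, minus strand, long intergenic non-coding RNA of 11 exon blocks) ran parallel to Cnih2 at a lower level. It stood at 0.379, 0.250 and 0.314 CPM in mESC-2i, which are 3, 3 and 4 counts, and at 0.482, 0.416 and 0.460 CPM in mESC-ser, which are 7, 5 and 8 counts. EpiLC libraries held 13.6, 15.6 and 13.2 CPM. EpiLC (14.1 ± 1.30 CPM) lay 45.0-fold above mESC-2i (log2 fold change 5.47, SE 0.25; pooled counting interval 24.9 to 97.6) and 31.2-fold above mESC-ser (5.00, SE 0.21). In both EpiLC comparisons all 5 genes were higher in every EpiLC library than in any mESC library, as were 38.2% of genes tested against mESC-2i and 39.6% against mESC-ser. A call of higher went to 32.0% and 35.5% of genes tested, and all 5 genes met it in both comparisons. Nothing is read from these counts, since the genes were picked on the same contrasts. In bulk RNA, more cells that express a gene and more RNA per cell cannot be told apart.

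**Figure D1:**
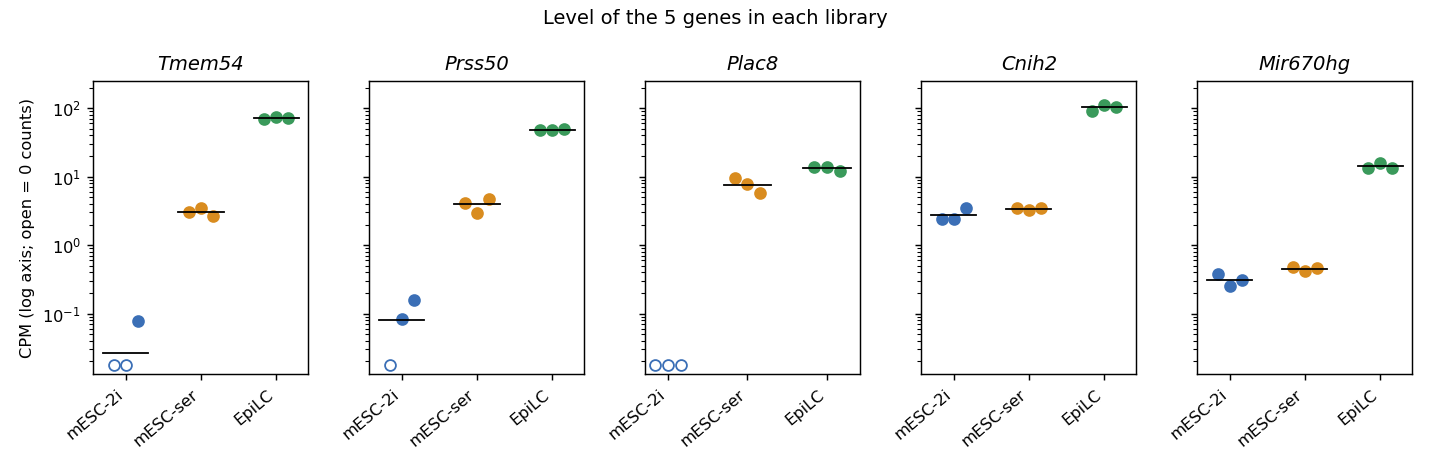
CPM of the 5 genes in each of the 9 libraries on a log axis, with a bar at the group mean and open circles for libraries with 0 counts, drawn at the foot of the axis. Tmem54 and Prss50 rise in 2 steps. Plac8 goes from 0 in mESC-2i to levels in mESC-ser and EpiLC that lie within a factor of 1.75 of each other. Cnih2 and Mir670hg are low in both mESC groups and high in EpiLC.

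The grouping was measured as the root mean square difference between 2 genes in log2 CPM over the 9 libraries, after removal of each gene's mean. Cnih2 and Mir670hg were closest, at 0.23, followed by Tmem54 and Prss50, at 0.50. The other 8 pairs lay between 1.19 and 2.22, with Plac8 and Cnih2 farthest apart. These values describe the 9 libraries, which all pairs share, and a prior count of 2 damps differences near 0 counts.

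Levels can be compared between genes per kilobase of exon. In EpiLC the order was Cnih2 (75.2 CPM per kb), Tmem54 (59.1), Prss50 (33.4), Plac8 (8.38) and Mir670hg (5.10). Cnih2 was above 91.4% of 15982 expressed genes in EpiLC on this scale, Tmem54 above 89.6%, Prss50 above 84.0%, Plac8 above 63.9% and Mir670hg above 54.8%. In mESC-2i the same genes stood at 2.01 (Cnih2), 0.114 (Mir670hg), 0.0550 (Prss50), 0.0214 (Tmem54) and 0 (Plac8) CPM per kb. In mESC-ser the order changed, with Plac8 highest at 4.80 CPM per kb, then Prss50 (2.71), Tmem54 (2.52) and Cnih2 (2.48) close together, and Mir670hg at 0.164. The spread between EpiLC libraries was small for all 5. The coefficient of variation was 3.15% for Tmem54 and 2.22% for Prss50, where counting alone would give 4.13% and 5.02%. It was 6.74% for Plac8 and 9.23% for Mir670hg, against 9.61% and 9.37% from counting. Only Cnih2, at 9.36% against 3.47%, varied more between libraries than its counts would give.

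Serum-grown mESC were compared with naive mESC to ask which of the 5 genes had already changed without the move to EpiLC medium. The contrast itself did not choose the genes, but their low naive levels did, since the rises of EpiLC were taken over the same mESC-2i libraries. The values of Tmem54, Prss50 and Plac8 are therefore given as a description, without a test. Of the 5 genes, 4 passed the filter on low counts, and Tmem54, Prss50 and Plac8 did so through mESC-ser alone. These 3 met the rule for a call of higher in mESC-ser, which 25.9% of the 15728 genes tested met (56.2% in either direction), and nothing is read from that number. The pooled ratio of mESC-ser to mESC-2i was 98.9 for Tmem54 (counting interval 17.4 to 3935) and 44.1 for Prss50 (14.9 to 216). Plac8, with no naive count, was higher by at least 20.2-fold. Each of the 3 was higher in 3 of 3 serum libraries than in any naive library.

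Cnih2 was not called in this contrast. The log2 fold change was 0.26 (SE 0.21, edgeR adjusted p = 0.306), the groups overlapped, and the counting interval of the pooled ratio of 1.21 ran from 0.929 to 1.59. Mir670hg fell below the filter. Its serum libraries all lay above its naive libraries, as did those of 35.0% of the genes tested and those of 4 of the 5 genes here, but the pooled ratio of 1.49 had an interval of 0.664 to 3.56. Without a filter its log2 fold change was 0.56 (SE 0.61, edgeR adjusted p = 0.48), and with all 9 libraries in 1 fit it was 0.55 (SE 0.41, edgeR adjusted p = 0.349). For both genes a difference between the mESC states was not detectable at this depth. The counting intervals reach 1.59-fold and 3.56-fold, but they leave out the spread between libraries and so do not bound the change.

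Promoters of the 5 genes differed in their content of CpG, the dinucleotide at which DNA is methylated in mammals. In the 300 bases from 250 before to 50 after the most 5′ RefSeq start of each gene, 27025 mouse promoters held a median of 7 CpG, with quartiles of 3 and 20. Tmem54, Prss50 and Plac8 have 2 RefSeq starts each and Mir670hg has 4, and the other starts were not examined. Tmem54 (28 CpG), Cnih2 (25) and Prss50 (21) were above 86.0%, 81.6% and 75% of promoters. Mir670hg (7) and Plac8 (5) were above only 47.7% and 38.3%. Cnih2 and Mir670hg, the pair with the most similar course across the libraries, thus differed in this feature, with Mir670hg at the median of all promoters. The promoters of these 2 genes and of Plac8, the gene with the least CpG, are shown 5′ to 3′ on the strand of the gene (RefSeq, GRCm38.p6, all minus strand: Cnih2 chr19:5098472-5098771, Mir670hg chr2:94265054-94265353, Plac8 chr5:100572156-100572455), with each CpG in capitals.
Cnih2: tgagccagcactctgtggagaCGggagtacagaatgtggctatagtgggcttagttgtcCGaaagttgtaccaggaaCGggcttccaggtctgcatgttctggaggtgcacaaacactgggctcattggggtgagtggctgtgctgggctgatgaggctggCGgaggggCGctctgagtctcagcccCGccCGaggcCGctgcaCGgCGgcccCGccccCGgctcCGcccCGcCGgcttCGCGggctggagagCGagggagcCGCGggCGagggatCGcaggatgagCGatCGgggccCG
Mir670hg: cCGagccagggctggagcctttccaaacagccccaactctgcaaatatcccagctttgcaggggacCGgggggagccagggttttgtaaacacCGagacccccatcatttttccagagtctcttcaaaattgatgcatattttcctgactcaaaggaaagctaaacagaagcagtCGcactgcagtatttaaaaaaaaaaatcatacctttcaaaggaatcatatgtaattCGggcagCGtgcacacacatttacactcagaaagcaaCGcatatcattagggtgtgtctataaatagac
Plac8: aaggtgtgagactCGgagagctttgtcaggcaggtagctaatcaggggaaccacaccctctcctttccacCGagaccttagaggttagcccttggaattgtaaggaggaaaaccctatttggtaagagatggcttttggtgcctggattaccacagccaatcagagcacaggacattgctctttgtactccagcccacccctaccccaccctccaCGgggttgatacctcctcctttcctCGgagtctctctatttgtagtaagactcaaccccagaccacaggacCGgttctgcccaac
The CpG of Cnih2 crowd into the stretch around the start, which also holds 3 GC boxes. In Mir670hg and Plac8 they are scattered. The RefSeq start used for Mir670hg (base 94265103) lies upstream of the first base of the gene in GENCODE (94264918), so this window may not be the one in use.

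A search of both strands of these windows for 6 short motifs gave few matches. The GC box (GGGCGG, in 35.9% of promoters) was found in Cnih2 and Tmem54, and the CCAAT box (CCAAT, 38.0%) in Plac8 and Cnih2. The OTX motif (TAATCC, 7.15%) was found in Plac8 only, at position -106 from the start. The AP-1 motif (TGANTCA, 7.92%) was found in Tmem54 and Mir670hg. The TCF/LEF motif (CTTTGA, 16.2%) and the TATA box (TATAAA, 14.2%) were found in Mir670hg only, where an AP-1 match and a TCF/LEF match overlap. The TATAAA of Mir670hg begins at base 40 after the RefSeq start, not before it. No motif was found in more than 2 of the 5 windows, and that of Prss50 had none of the 6. Windows at the other RefSeq starts were not searched. A match says that the letters are there, not that a factor binds.

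Mir670hg is the host of miR-670, and its gene body also spans Mir129-2 on the same strand and Mir129b on the other. The annotation places another microRNA gene, Gm23630, on the strand of the host. Mature sequences from RefSeq are shown for miR-670, after which the host is named, and for miR-129-2, which lies within the same transcribed span, with the seed (bases 2 to 8) in capitals.
mmu-miR-670-5p: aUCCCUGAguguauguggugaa
mmu-miR-670-3p: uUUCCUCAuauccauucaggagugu
mmu-miR-129-5p: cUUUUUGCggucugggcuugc
mmu-miR-129-2-3p: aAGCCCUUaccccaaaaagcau
No 2 of the 4 share a seed. The hairpin of miR-670 (chr2:94261300-94261399, minus strand) overlaps exons of the host by 22 bases, and that of miR-129-2 (chr2:94241364-94241453, minus strand) lies in its introns. The rows of Mir670, Mir129-2 and Gm23630 held 0 counts in all 9 libraries. Libraries of poly-A RNA do not measure mature microRNAs, so the rise of the host says nothing here of the level of miR-670.

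Cnih2 was set beside the other cornichon genes, Cnih3, which also encodes an escort of AMPA receptors, and Cnih1 and Cnih4, which are known for the export of other cargo from the endoplasmic reticulum. Cnih1 was called lower in mESC-ser than in mESC-2i (28.0 against 54.5 CPM, log2 fold change -0.98) and called higher in EpiLC against both (77.2 CPM, 0.51 and 1.54). Cnih4 did the same (52.3, 37.1 and 82.0 CPM in the order naive, serum and EpiLC, with log2 fold changes of -0.52, 0.65 and 1.22). The calls of Cnih1 against mESC-2i and of Cnih4 between the mESC states stood close to the fold threshold and were lost under several alternatives. Cnih3 stayed under 0.76 CPM in every library and was not tested. Per kilobase of exon, Cnih2 made up 3.27%, 3.41% and 5.83% of the summed level of the 4 genes in mESC-2i, and 7.58%, 7.50% and 10.5% in mESC-ser. In EpiLC it made up 49.7%, 54.0% and 52.2%. About the same level of Cnih2 in the mESC states was thus a larger share in mESC-ser, where Cnih1 and Cnih4 were lower, and the family became mostly Cnih2 in EpiLC.

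The genes of the receptors that Cnih2 serves in neurons moved in both directions. Of 18 genes for AMPA receptor subunits and their other auxiliary proteins, 12 were tested in EpiLC against mESC-2i, of which 4 were called higher (Gria4, Cacng7, Cacng8 and Shisa6) and 7 lower, with a median log2 fold change of -0.52 beside -0.11 over all genes, of which 32.0% were called higher. The lower calls of Shisa7 and Abhd6 (both -0.52) were at the fold threshold and were lost with RLE scaling, with DESeq2 and without some of the libraries. Against mESC-ser 11 were tested, of which 1 was called higher (Cpt1c, 0.58) and 5 lower, with a median of -0.35 beside -0.07. Over all genes 35.5% were called higher there. In mESC-ser against mESC-2i 12 were tested, of which 7 were called higher and 3 lower, with a median of 0.82. Over all genes 25.9% were called higher there, with a median of -0.04. The pore-forming subunits were scarce. Gria1 and Gria2 were under 0.5 CPM on average in every group, Gria4 reached 1.56 CPM in EpiLC, and Gria3 stood at 0.96 CPM there against 2.44 in mESC-2i and 4.11 in mESC-ser. The highest partner in EpiLC was Cacng7, which encodes a TARP, another kind of receptor escort, at 17.4 CPM in naive cells, 117 in serum and 86.9 in EpiLC. Its highest mean was thus in serum, unlike that of Cnih2.

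Prss50 was set beside the 38 other genes named Prss, a name given to serine proteases, which were taken by symbol alone. Most were silent or nearly so. In all, 26 stayed under 1 CPM in every library, among them 9 with no count at all. In EpiLC against mESC-2i 7 were tested, 5 of which were called higher and 1 lower, with a median log2 fold change of 2.59, that of Prss41. Over all genes tested 32.0% were called higher there, with a median of -0.11. Against mESC-ser 9 were tested, 5 of which were called higher and 3 lower, with a median of 1.13, beside 35.5% and -0.07 over all genes. Prss8, which encodes prostasin, a protease anchored at the surface of epithelial cells, was the highest of these in EpiLC. It rose from 3.69 CPM in naive cells to 11.9 in serum and 26.4 in EpiLC (log2 fold changes of EpiLC 2.86 and 1.21, both called). Prss41 and Prss36 were also called higher in EpiLC against both (2.59 and 1.52 for Prss41, 1.37 and 1.13 for Prss36). Prss22 and Prss44, the other 2, were low, with at most 3.06 CPM in any library. Against mESC-2i these 2 passed the filter through EpiLC alone, so nothing is read from the number of Prss genes called. Prss44, which lies on chromosome 9 like Prss50, had no count in mESC-2i, and its EpiLC level was higher by at least 7.13-fold. Prss35 moved the other way, from 37.4 CPM in naive cells to 4.76 in serum and 0.208 in EpiLC, where it had 1 or 2 counts a library, and Prss23 was high in mESC-ser alone (14.4 CPM). Per kilobase of exon, Prss50 was above all of these in EpiLC.

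**Figure D2:**
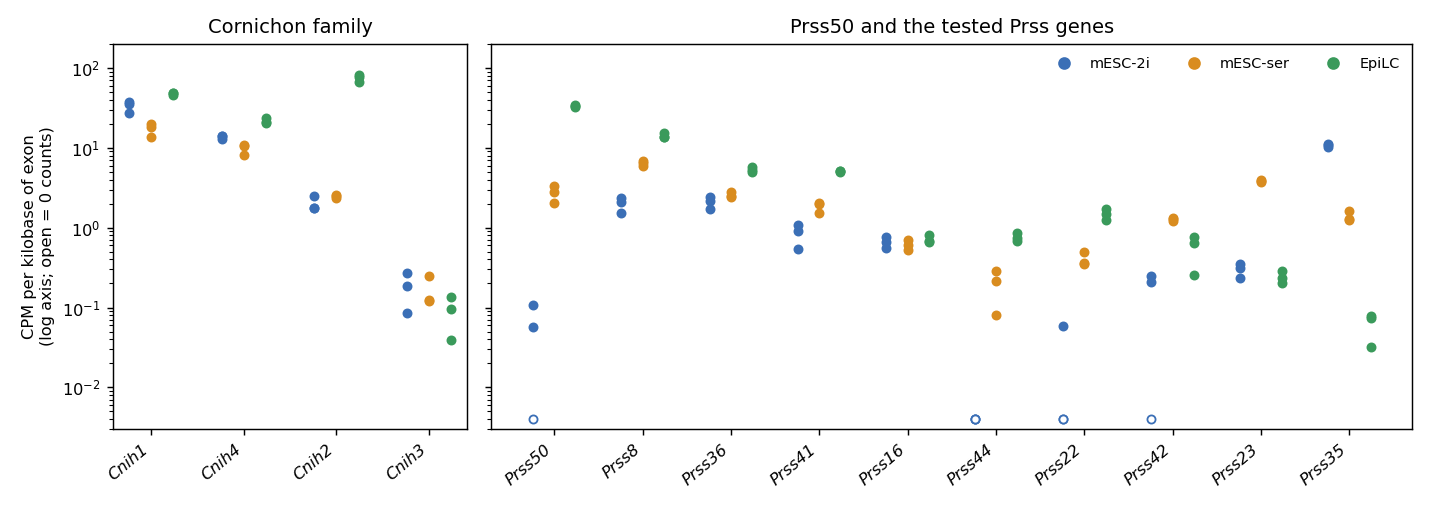
CPM per kilobase of exon (log axis) in each library for the 4 cornichon genes, left, and for Prss50 with the 9 other Prss genes tested in any EpiLC comparison, right, with open circles for 0 counts. Cnih2 goes from well below Cnih1 and Cnih4 in both mESC groups to above them in EpiLC, and Prss50 from under 0.2 in mESC-2i to above all others drawn in EpiLC.

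Since Prss50 is best known from the testis, germ cell genes were looked at beside it. Of 6 germ cell markers tested, 3 were called higher and 3 lower in EpiLC against mESC-2i, with a median log2 fold change of -0.25. Mael and Sycp3, which act in piRNA silencing and in meiotic chromosome pairing, were higher (4.36 and 2.12), as was the germline helicase Ddx4 (1.17), whereas Dazl, Prdm1 and Nanos3 were lower. Against mESC-ser 3 were called higher and 2 lower, with a median of 0.14. Over all genes tested, 32.0% were called higher against mESC-2i and 35.5% against mESC-ser. Mael and Sycp3 were again higher (1.09 and 1.44), but Ddx4 was lower (-1.86). The relatives of Plac8 gave no signal. Plac8l1 had at most 4 counts in any library and Cnfn none.

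Plac8 is known from placenta and blood, and markers of those and other lineages were counted to see what moved beside the 5 genes. Trophoblast markers summed to 16.5 to 18.5 CPM in mESC-2i, 9.65 to 12.2 in mESC-ser and 8.41 to 9.42 in EpiLC, and the placental genes Tpbpa and Prl3d1 were at 0 in all 9 libraries. Of 8, 2 were tested against mESC-2i (1 called higher, 1 lower) and 4 against mESC-ser (1 higher, 3 lower). Blood and immune markers summed to 289 to 317 CPM in mESC-2i, 88.5 to 95.7 in mESC-ser and 56.9 to 59.1 in EpiLC, and the pan-leukocyte gene Ptprc had no count in EpiLC. Of 6, 4 were tested against mESC-2i (1 higher, 3 lower) and 3 against mESC-ser (2 higher, 1 lower). Over all genes, 32.0% and 35.5% were called higher in these comparisons. Most of the blood and immune sum in naive cells came from 1 gene, Laptm5 (241, 70.2 and 11.9 CPM in naive cells, serum and EpiLC), which was called lower in EpiLC. Itgam, an integrin gene known from myeloid cells, was called higher in EpiLC against both mESC groups (7.87, 5.43 and 18.3 CPM, log2 fold changes 1.22 and 1.84). Cd68 was called higher against mESC-ser only (0.88), and that call was lost with an adjustment for gene length and GC content (0.07). The part of such cells in the level of Plac8 was not tested.

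Other lineages were as follows, beside 32.0% and 35.5% of all genes tested called higher against mESC-2i and mESC-ser. The 3 neural markers summed to 1.20 to 2.00 CPM in EpiLC, against 26.1 to 28.9 in mESC-2i and 30.1 to 33.3 in mESC-ser, and all that were tested were called lower in EpiLC (3 against mESC-2i, 2 against mESC-ser). Endoderm markers summed to 3.01 to 4.70 CPM in EpiLC, 15.4 to 20.4 in mESC-2i and 10.9 to 12.9 in mESC-ser, with 0 of 3 called higher and 2 lower against mESC-2i and with 1 of 4 higher and 3 lower against mESC-ser. Primitive streak and mesoderm markers summed to 15.1 to 17.1 CPM in EpiLC, 97.1 to 116 in mESC-2i and 12.8 to 16.4 in mESC-ser, with 1 of 4 higher and 2 lower and with 2 of 4 higher and 1 lower. Fibroblast markers summed to 42.2 to 46.2 CPM in EpiLC, 40.5 to 46.1 in mESC-2i and 59.8 to 80.6 in mESC-ser, with 2 of 5 higher and 3 lower in both. The part of these cells in the levels of the 5 genes was not tested.

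The genes next to the 5 on their chromosomes moved in both directions. Of the 30 nearest genes, 3 on either side of each, 22 were tested in EpiLC against mESC-2i, where 8 were called higher and 6 lower with a median log2 fold change of 0.16, beside 32.0% called higher and a median of -0.11 over all genes. Against mESC-ser 21 were tested, where 9 were called higher and 6 lower with a median of 0.50, beside 35.5% and -0.07. Nothing particular to the neighbours is read from these counts. Between the mESC states 21 were tested, where 3 were called higher and 4 lower in mESC-ser, beside 25.9% called higher over all genes. The nearest neighbours differed from place to place. Tmie, a gene of the hair cells of the inner ear, lies 1081 bases from Prss50 on the opposite strand, with the 3′ ends of both genes facing. Tmie was also higher in EpiLC, at a low level. It had 0.27, 0.64 and 4.23 CPM in mESC-2i, mESC-ser and EpiLC (log2 fold changes of EpiLC 3.87, SE 0.34, and 2.77, SE 0.27; edgeR adjusted p = 1.92e-06 and 6.71e-08). Tmie had 2, 3 and 4 counts in the mESC-2i libraries and so passed the filter through EpiLC alone. The part of reads running past the end of Prss50 in the level of Tmie was not tested. On the other side of Prss50, Prss46, at 1444 bases, had at most 0.36 CPM on average in any group.

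Rab1b, a GTPase of transport from the endoplasmic reticulum to the Golgi that lies 683 bases from Cnih2, was called higher in EpiLC by less than 2-fold against either group (log2 fold changes 0.95 and 0.89). Hsd17b12, 2671 bases from Mir670hg, was called higher against mESC-ser only (0.04 and 0.82), whether the 2 effects differ was not tested, and Ttc17 on the other side was called lower against both (-1.67 and -1.18). Next to Plac8, Cops4, at 5921 bases, was called against mESC-2i (0.66) and stood at the fold threshold against mESC-ser (0.50, not called). The neighbours of Tmem54 included both Fndc5, called higher (2.77 and 0.95), and Rnf19b, called lower (-0.96 and -0.99). Fndc5 was low, with 1, 2 and 10 counts in the mESC-2i libraries and a mean of 2.78 CPM in EpiLC. With an adjustment for gene length and GC content, the calls against mESC-ser were lost for Fndc5 (0.56), Rab1b (0.26) and Ttc17 (-0.42). Cops4 gained one (0.75).

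**Figure D3:**
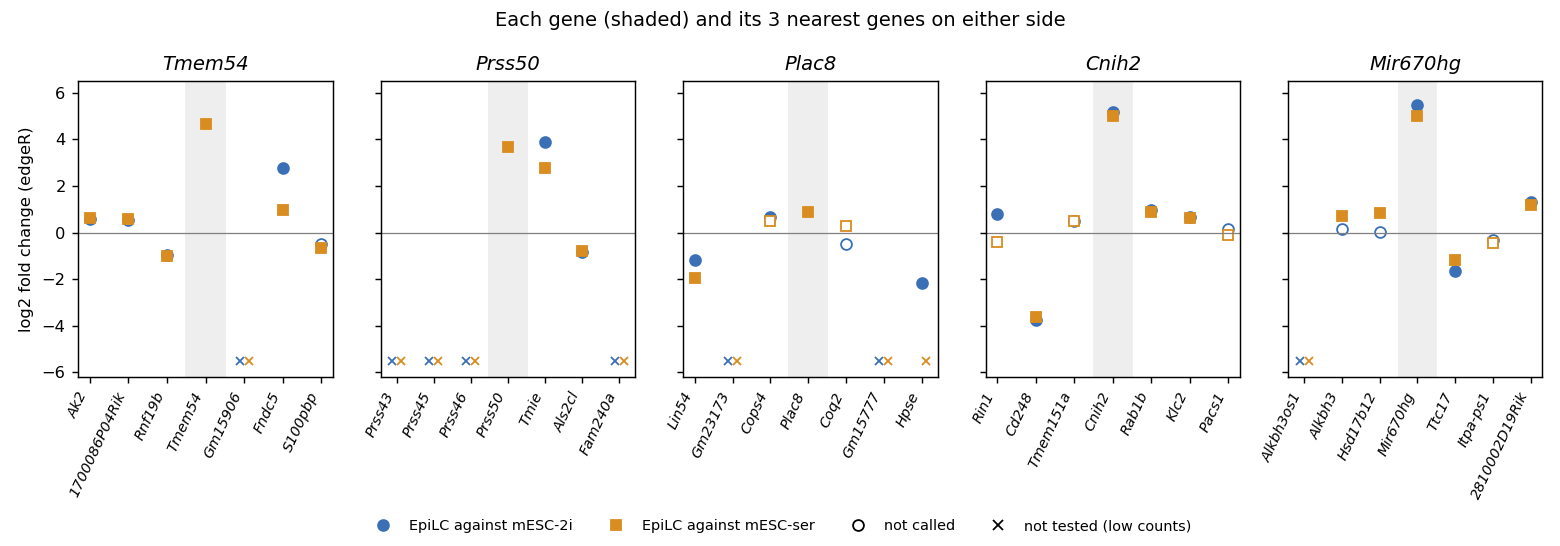
Log2 fold changes of EpiLC against mESC-2i (circles) and mESC-ser (squares) for each of the 5 genes, shaded, and for its 3 nearest genes on either side in order of position, with open marks for genes not called and crosses for genes not tested. The fold against mESC-2i is not drawn for Tmem54, Prss50 and Plac8, which had 0 to 2 counts there. Of the neighbours, Tmie and Fndc5 alone reach a log2 fold change above 2, and both had at most 10 counts in any mESC-2i library. Cd248, which had 1 to 3 counts in EpiLC, lies lowest, near Cnih2.

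A pair of genes overlap a neighbour on the opposite strand. Tmem54 shares 57 exonic bases with Hpca, which encodes a neuronal calcium sensor, and Cnih2 shares 14 with Yif1a. The kit does not mark strand and the strand setting of the counting is not given, so reads from the shared bases cannot be assigned. Hpca was called higher in EpiLC (1.23, 2.73 and 7.60 CPM in mESC-2i, mESC-ser and EpiLC; log2 fold changes of EpiLC 2.63 and 1.55). Yif1a stood at 28.6, 20.4 and 41.4 CPM (0.53 and 1.10, both called). Both calls of Yif1a were lost with an adjustment for gene length and GC content (0.25 and 0.47). The call against mESC-2i was also lost with scaling by total counts (0.19) and without some of the libraries.

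The 4 coding genes are short, and in EpiLC the median log2 fold change was higher for short genes than for all genes. Their exons sum to 1222 (Tmem54), 1369 (Cnih2), 1456 (Prss50) and 1592 bases (Plac8), and at most 8.09% of 13037 protein-coding genes tested are shorter. The median log2 fold change of the 3260 shortest protein-coding genes (under 2756 bases) was 0.55 in EpiLC against mESC-2i and 0.95 for the 3230 shortest against mESC-ser, where those of all protein-coding genes were -0.18 and -0.15. In mESC-ser against mESC-2i the 3323 shortest stood at -0.35. Tmem54, Prss50 and Cnih2 also have a high GC content, at 57.9%, 61.0% and 62.3%. With offsets for length and GC content fitted in each library, the log2 fold changes against mESC-ser went from 4.64 to 3.70 for Tmem54, from 3.66 to 2.76 for Prss50, from 4.98 to 4.03 for Cnih2 and from 5.00 to 4.89 for Mir670hg. That of Plac8 went from 0.89 to 0.42, under the fold threshold. The excess of Plac8 over serum thus depends on this correction, and the other 4 stayed well past the threshold with it.

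Genes with the most similar course over the 9 libraries were found among 7906 others with at least 100 counts on average in EpiLC, by the same root mean square difference of log2 CPM as above. For Tmem54 the nearest was Fgf5, the growth factor gene used as a marker of the post-implantation epiblast, at 0.35. Fgf5 stood at 0.0818 ± 0.0835, 3.85 ± 0.657 and 122 ± 5.32 CPM in mESC-2i, mESC-ser and EpiLC. Next were Car4, a carbonic anhydrase at the cell surface (0.64), and Jph4, a junctophilin that ties the endoplasmic reticulum to the plasma membrane (0.71). For Prss50 they were Jph4 (0.51), the tight junction gene Cldn6 (0.69) and Fgf5 (0.69). Tmem54 and Prss50 thus share Fgf5 and Jph4. The distances understate differences near 0 counts, since a prior count of 2 was added. The pooled ratio of EpiLC to mESC-2i was 2362 for Tmem54 and 529 for Prss50. It was 1324 for Fgf5 and 1191 for Car4, but 151 for Jph4 and 66.0 for Cldn6.

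Cnih2 and Mir670hg shared their nearest genes too. Mt3, a metallothionein known from the brain, lay at 0.19 from Cnih2 and 0.25 from Mir670hg, with 0.977 ± 0.255, 1.14 ± 0.179 and 32.3 ± 1.28 CPM in mESC-2i, mESC-ser and EpiLC. Zfp467, a zinc finger gene, lay at 0.34 and 0.30, followed by Tmem91 for Cnih2 (0.46) and Slc35d3 for Mir670hg (0.33). Plac8 had a set of its own, with the surface metalloprotease gene Mmp25 (0.33), the myosin light chain gene Myl9 (0.37) and Esrp1, a regulator of epithelial splicing (0.40). Esrp1 stood at 0.838 ± 0.265, 67.6 ± 6.67 and 85.4 ± 1.61 CPM. Like Plac8, it was far above its naive level already in serum. Plac8 held 43.1% to 70.7% of its EpiLC mean there, and Esrp1 was closer to its own. None of the nearest genes of Plac8 was among those of the other 4.

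**Figure D4:**
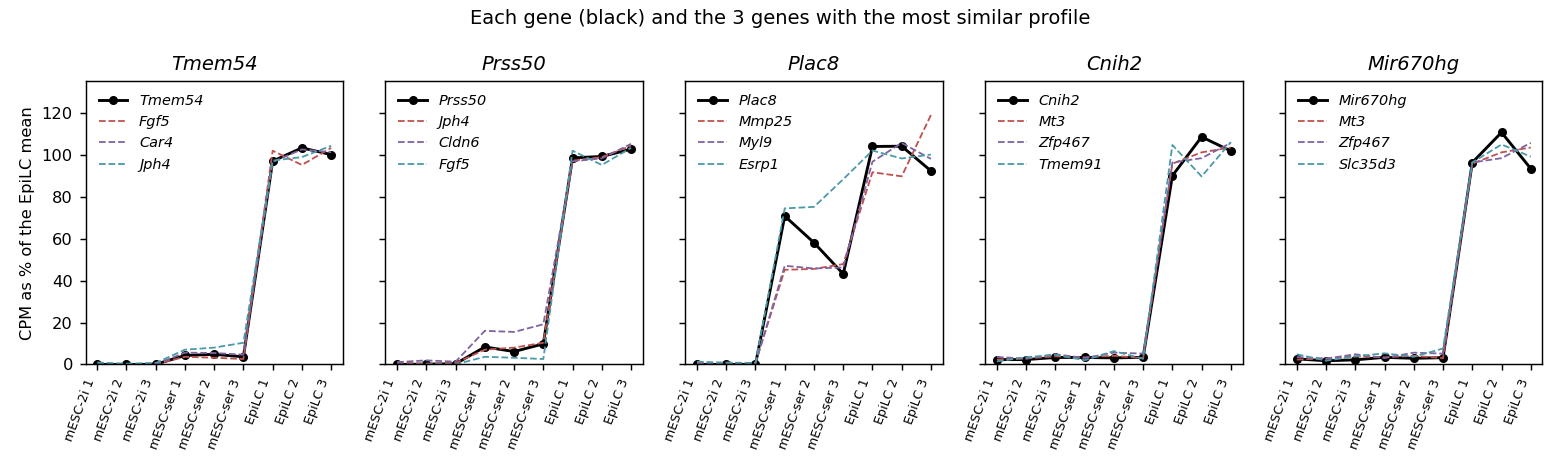
CPM in each of the 9 libraries as a percent of the EpiLC mean for each of the 5 genes (black, with points) and for the 3 genes with the most similar course (dashed). Plac8 and its 3 nearest genes stand above 40% in all mESC-ser libraries, whereas the other panels stay under 20% there.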

How the data were processed

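The deposited table holds the number of reads of each Ensembl gene in each library as raw counts, not normalized. Per the labels and the study's methods, the authors sequenced poly-A RNA (TruSeq v2 libraries, 50 bp single-end reads), trimmed reads with Trim Galore 0.6.6, aligned them to mm10 with HISAT2 2.2.1 and made the counts with featureCounts of Subread 2.0.1. The annotation release, strand setting and treatment of reads with several alignments are not given in the sources used here. Columns were matched to samples by name, those of mESC-ser through the letters S and L for serum and LIF.

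Symbols, positions and lengths came from GENCODE M21 (GRCm38, the assembly of mm10), which matched 36429 of 38293 identifiers (95.1%). Promoter and microRNA sequences are from RefSeq, GRCm38.p6, and all 5 genes had a promoter entry. Where a gene had several starts, only the most 5′ was used. Groups were compared in pairs, with the 6 libraries of a pair in the fit, in R 4.3.3 with edgeR 4.0.16 (limma 3.58.1), with filterByExpr, TMM and the quasi-likelihood F-test. The thresholds, a log2 fold change of 0.5 and an adjusted p of 0.05, follow those the study states. SE are from the F statistic. Folds against libraries at 0 used a floor of 3 counts in the shallowest library, and ratios from few counts have 95% exact counting intervals. Similarity used a prior count of 2.

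The 5 genes, the gene lists and the marker lists were chosen with earlier results of these data known. Genes named in the text are the 5 genes, overlapping genes, the 3 nearest genes on either side, the 3 most similar genes (without clone names), and from the lists those called or set beside a paralogue. Gria1, Gria2, Plac8l1, Cnfn, Tpbpa, Prl3d1 and Ptprc are named for their absence or low level.

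Replicate numbers were checked as pairs by correlating deviations of log2 CPM from group means. Same-numbered libraries correlated at 0.129 to 0.345 between mESC-ser and mESC-2i (other pairs -0.278 to 0.146). They correlated at 0.0195 to 0.112 between EpiLC and mESC-2i (other pairs -0.114 to 0.0105). Between EpiLC and mESC-ser the values were 0.0165 to 0.0335 (other pairs -0.0308 to 0.0159). What a number stands for is not labelled. The fits that gave the p-values held no replicate term, and a block on the number was run as an alternative. Replicates of a group differed by more than sampling noise (chi-square per degree of freedom 1.66 to 30.5). On simulated mESC-ser against mESC-2i counts with 200 changed genes, the fit recovered 98.0%, with 2.97% false calls among 202 over 15577 genes. The simulation used the same fixed spread for every gene and changed far fewer genes than were called in the data. The changed genes were well above the naive counts of Tmem54, Prss50, Plac8 and Mir670hg. It therefore checks that the code runs correctly and gives no error rate for the real data. Alternatives were DESeq2 1.42.0, scaling by RLE, by the upper quartile or by total counts, a fit without a filter or with a filter of 10 counts in every library, all 9 libraries in 1 fit, the replicate block, length and GC offsets, and leaving out each replicate. Histone marks were not analysed here.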

Additional observations from a re-analysis of the deposited data

How the results depend on the processing

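With at least 10 counts required in every library, 0 of the 5 genes were called higher in mESC-ser over mESC-2i (3 otherwise) and 1 in EpiLC over mESC-2i (5 otherwise), because that filter removes genes near 0 in naive cells. With length and GC offsets, 9 neighbouring genes were called in EpiLC against mESC-ser (15 otherwise), and the sign of 2 neighbours turned, from 0.59 to -0.073 for 1700086P04Rik and from -0.68 to 0.36 for S100pbp. The same offsets took Plac8 under the fold threshold in that comparison. Leaving out each replicate gave 3 to 3 of the 5 genes called higher in mESC-ser over mESC-2i, 5 to 5 in both EpiLC comparisons, and 14 to 16 and 14 to 19 neighbours called against mESC-2i and mESC-ser. The log2 fold change of Cnih2 between the mESC states was 0.15 to 0.48 over all alternatives and was never called.

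With the replicate number as a block, the number of genes called was 8953 between the mESC states (8843 without it), 10759 for EpiLC over mESC-2i (10732) and 11207 for EpiLC over mESC-ser (11246). The block changed no call of the 5 genes. Scaling to total counts moved the median over all genes (log2 fold change) to -0.45 against mESC-2i and -0.41 against mESC-ser. Of the genes called in either direction, the share higher in EpiLC went from 45.9% to 33.7% and from 48.4% to 37.4%. Of the 303 results for single genes, 62 changed side or sign under any alternative, over 126 weaker, 54 stronger and 2 reversed values, and 4264 values kept both. The floor of 3 counts limits what can be said of Tmem54, Prss50 and Plac8 in naive cells.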

Other observations

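Among the trophoblast markers, a few stood out in level or in direction. Ascl2, a transcription factor gene of the trophoblast that is also a Wnt target, was called higher in EpiLC against both mESC groups (1.82, 2.46 and 7.63 CPM in mESC-2i, mESC-ser and EpiLC; log2 fold changes 2.13 and 1.68). Hand1 and Gcm1 stood at 4.49 and 1.63 CPM in mESC-ser and under 0.2 CPM in the other groups.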
